A study of Mus musculus with 2 samples.

Results

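The genes described are 10 carbonic anhydrase genes of the mouse, Car1, Car2, Car3, Car4, Car5b, Car8, Car9, Car12, Car13 and Car14, among 43346 genes with mouse identifiers in the deposited tables. They were chosen by name, and every gene and transcript entry that maps to one of them was used, which gave 35 annotated transcripts. The source was adipose tissue from an adult male of the strain C57BL/6J, 10 weeks old, and polyadenylated RNA of 1 biosample was sequenced as 2 technical libraries. The labels hold 1 group, so no condition was compared, and every SD is a technical spread between n = 2 libraries. Library 2 was performed in May 2015, outside the 2014 publication that the labels name, so library and date cannot be told apart.

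Carbonic anhydrases are zinc enzymes that turn carbon dioxide and water into bicarbonate and a proton, and back. In fat they feed bicarbonate to the carboxylases of lipid and glucose metabolism, and in the epididymis, the sperm-storing duct that lies against a male fat depot, they take part in keeping the duct lumen acidic. Family members differ in where they work: in the cytosol, in mitochondria, or at the cell surface facing outward.

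Levels are given as TPM, a share of all transcripts that corrects for their length. The libraries held 19954869 and 19256807 expected counts. Mitochondrial genes and their copies on chromosome 1 held 51.7% of TPM in library 1 and 15.9% in library 2, which lowers the TPM of every other gene more in library 1. The tissue held transcripts of more than fat: 12 of 12 adipocyte markers and 12 of 12 epididymal duct markers reached 1 TPM in both libraries, with summed levels of 8009 and 17728 TPM for adipocyte markers and 41874 and 48427 TPM for duct markers. In such bulk RNA fewer cells of a type and less RNA per cell cannot be told apart. Which cells the carbonic anhydrase transcripts came from was not tested.

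Part of the metal site is shown for 9 of the genes because its histidines help to bind the zinc. Each line gives 30 coding bases of the leading transcript, 5′ to 3′ on the coding strand, read from the GENCODE M21 transcripts of the mm10 build, and capitals mark the codons at the places of the first and second zinc-binding histidines.
Car1 (chr3:14776266-14776295, minus strand): cagttcCATtttCACtggggcaactcaaac
Car2 (chr3:14895063-14895092, plus strand): cagtttCACtttCACtggggctcatctgat
Car3 (chr3:14866844-14866873, plus strand): caattcCATcttCACtggggctcctctgat
Car13 (chr3:14650700-14650729, plus strand): cagttcCATttgCACtgggggtcagcagat
Car5b (chrX:163991399-163991428, minus strand): cagtttCATtttCATtggggagccattgat
Car4 (chr11:84964161-84964190, plus strand): cagttgCACctgCACtggtcaaatgggaat
Car9 (chr4:43508958-43508987, plus strand): cagttgCATctaCACtggggaacttcagat
Car12 (chr9:66747641-66747670, plus strand): cagctgCACttgCACtgggggaaccgcaat
Car14 (chr3:95900294-95900323, minus strand): cagctcCACctgCACtggggtcagagagga
In all 9 genes shown both marked codons, CAT or CAC, encode histidine. The stretch lies in exon 3 of Car1, Car2, Car3 and Car13 and in exon 4 of the other 5 genes.

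Car3 dominated the family. It took 97.9% and 96.4% of the summed TPM of the 10 genes in libraries 1 and 2, and the family stood at 7430 and 7247 TPM in all. Without Car3 the other 9 genes summed to 159 and 259 TPM. At least 1 TPM was reached in both libraries by 8 of the 10 genes, beside 57.1% of 21461 protein-coding genes outside the mitochondrial genome, and 5 of the 10 reached 10 TPM in both. Deposited TPM was higher in library 2 for 7 of the 10, and TPM rescaled without the mitochondrial genes and their copies for 4.

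**Figure D1:**
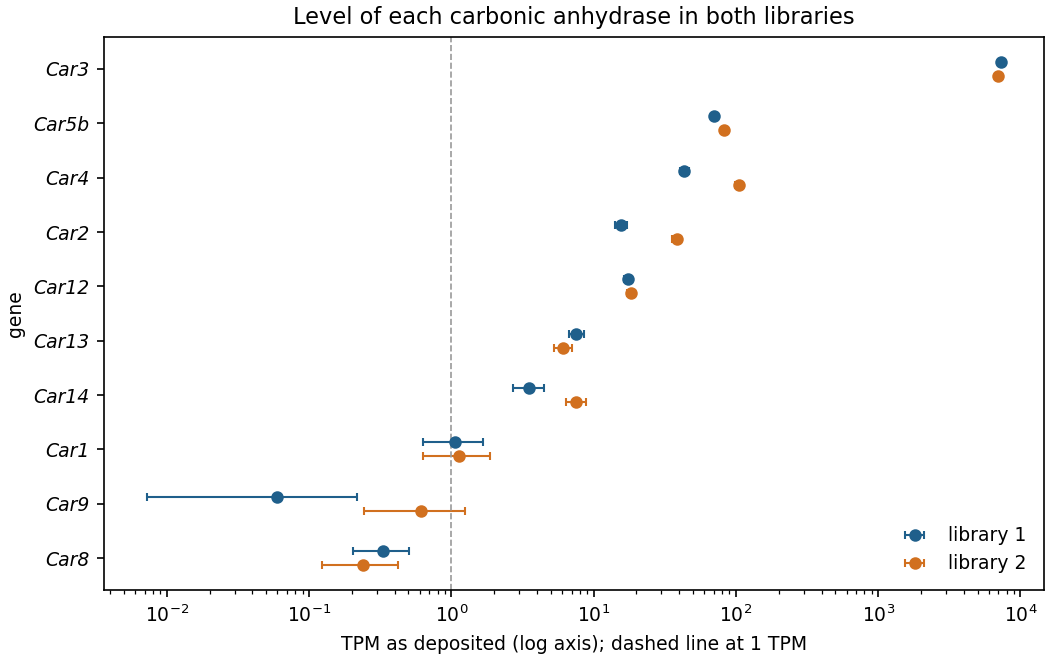
Deposited TPM of each gene (log axis) in library 1 and library 2, with bars for the 95% exact Poisson interval of its count and a dashed line at 1 TPM. Car3 sits at 7271 and 6988 TPM, Car5b, Car4, Car2 and Car12 between 15.7 and 104 TPM, and Car9 and Car8 under 1 TPM.

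By mean TPM the order was Car3, Car5b, Car4, Car2, Car12, Car13, Car14, Car1, Car9 and Car8. The mean of Car3 was 93.7 times that of Car5b, the next gene. Several neighbours in this order could not be separated: the values of Car5b and Car4 overlapped between the libraries, as did those of Car2 and Car12, of Car13 and Car14, and of Car9 and Car8. The other 5 neighbouring pairs kept their order in both libraries without overlap.

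Among the cytosolic enzymes, Car3 (ENSMUSG00000027559; chromosome 3, 14863512 to 14872523, plus strand) is an abundant protein of fat cells and slow muscle with much weaker catalysis than Car2. It stood at 7271 TPM in library 1, from 184852 counts, against 6988 TPM in library 2, from 136857 counts. It ranked 3 and 4 among protein-coding genes when the mitochondrial genes and their copies were left out. Its transcripts made up 0.926% of all counts in library 1 and 0.711% in library 2. On the rescaled TPM it stood at 15055 and 8307, so the near equality of the deposited values in the libraries belongs to that scale. Car3 is also a muscle gene, and of 10 skeletal muscle markers 1, Myl1, reached 1 TPM in both libraries. Those markers summed to 24.7 and 51.4 TPM, and Myh4, a myosin of fast muscle fibres, was at 0 counts in both. Myl1 itself had fewer counts in library 2, with 235 and 195. Other muscle markers had more counts in library 2. Among them were Acta1 with 2 and 237, Mb with 8 and 61 and Ckm with 0 and 25. Of Acta1, Mb and Ckm only Acta1 was called higher after the GC subtraction described below. The list holds no slow-fibre myosin or troponin, so its sums do not measure slow muscle. The part of the muscle markers in the level of Car3 was not tested.

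Car2 (ENSMUSG00000027562; chromosome 3, 14886273 to 14900770, plus strand) is the fast, widely expressed cytosolic enzyme, found in red blood cells and in acid-handling epithelia. It was at 15.7 TPM in library 1 (428 counts) and 38.3 TPM in library 2 (787 counts). Library 2 was the higher, and the Poisson intervals of 14.2 to 17.2 and 35.6 to 41.0 TPM did not overlap. On the rescaled TPM it stood at 32.5 and 45.5. Erythroid markers moved with it: 4 of 10 reached 1 TPM in both libraries, Hba-a1 was at 0 in library 1, and their sums were 372 and 4286 TPM, most of it from globin genes that share reads. Their part in the result was not tested.

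Car13 (ENSMUSG00000027555; chromosome 3, 14641727 to 14663002, plus strand), a further cytosolic enzyme with a wide tissue distribution, was at 7.56 TPM in library 1 (273 counts) and 6.11 TPM in library 2 (173 counts). Car1 (ENSMUSG00000027556; chromosome 3, 14766216 to 14808368, minus strand), an enzyme of red blood cells and gut, was at 1.06 TPM (18 counts) and 1.13 TPM (15 counts). On the deposited TPM both genes were low and the Poisson intervals of each overlapped between the libraries. On the rescaled TPM Car13 stood at 15.7 and 7.26, with library 1 the higher, and Car1 at 2.19 and 1.34. Beside the erythroid sums of 372 and 4286 TPM, the deposited TPM of Car1 differed by less than its counting error.

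The 4 cytosolic genes are neighbours on chromosome 3, in a stretch of 259 kb that holds 6 annotated genes in mm10. The other 2 are the pseudogenes Gm5843, with 0 and 1 counts, and Gm16399, with 0 counts in both libraries. Along the chromosome the mean levels were 6.84 TPM for Car13, 1.10 TPM for Car1, 7130 TPM for Car3 and 27.0 TPM for Car2. Car3 and Car2 lie on the same strand with a gap of 13.8 kb between them, yet the mean level of Car3 was 264 times that of Car2.

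**Figure D2:**
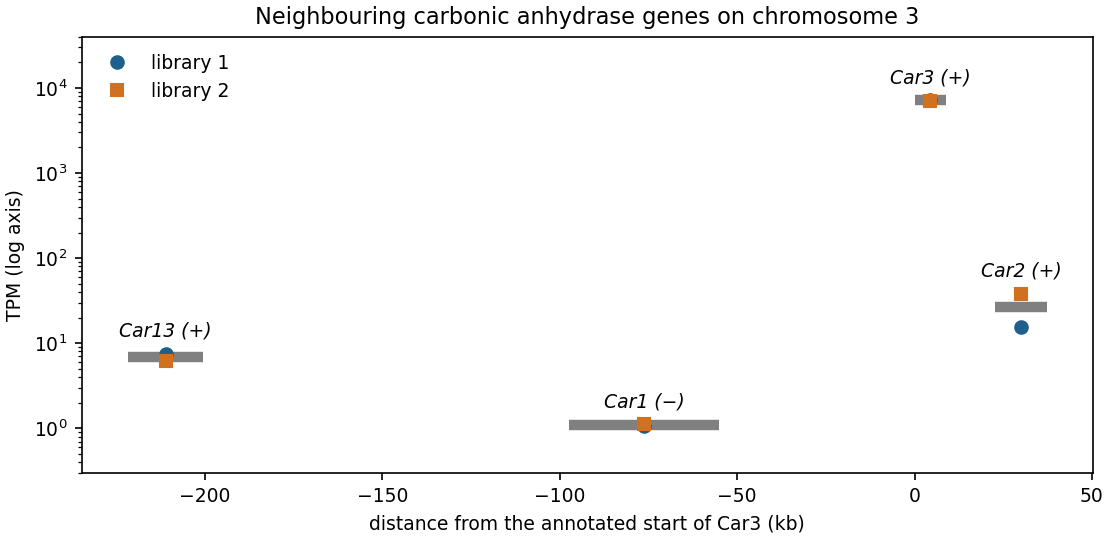
TPM (log axis) of the 4 carbonic anhydrase genes on chromosome 3 against distance from the annotated start of Car3 in kb; grey bars span each gene at its mean TPM, circles stand for library 1 and squares for library 2. Car3 lies at 7271 and 6988 TPM, while its neighbours Car13, Car1 and Car2 lie between 1.06 and 38.3 TPM.

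Car5b (ENSMUSG00000031373; chromosome X, 163976822 to 164027997, minus strand) encodes the mitochondrial enzyme, which supplies bicarbonate to pyruvate carboxylase inside the mitochondrion. It was at 70.0 TPM in library 1 (3888 counts) and 82.2 TPM in library 2 (3576 counts), a mean of 76.1 ± 8.61 TPM (SD, n = 2). The libraries were close on this scale, but on the rescaled TPM library 1 was the higher, at 145 against 97.7. The gene ranked 1051 and 1544 among protein-coding genes when the mitochondrial genes and their copies were left out. Its relative Car5a, the mitochondrial enzyme of liver, had 0 counts in library 1 and 1 count in library 2.

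Car4 (ENSMUSG00000000805; chromosome 11, 84957786 to 84966044, plus strand) encodes the enzyme held on the outer cell surface by a lipid anchor, known from capillary endothelium and from epididymal epithelium. It was at 43.4 TPM in library 1 (786 counts) and 104 TPM in library 2 (1429 counts). Library 2 was the higher, and the Poisson intervals of 40.4 to 46.5 and 99.0 to 110 TPM did not overlap. On the rescaled TPM it stood at 89.8 and 124. All 8 capillary endothelial markers reached 1 TPM in both libraries, with sums of 106 and 511 TPM, or 219 and 608 rescaled. In the comparison described below 5 of the 8 were called higher and 0 lower in library 2, beside 30.1% and 18.4% of all genes. After the GC subtraction 1 was called higher and 0 lower, beside 9.55% and 8.17% of all genes. The duct markers summed to the values given above. The part of either set of markers in the level of Car4 was not tested.

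The transmembrane enzymes were lower, with sums of 20.9 and 26.5 TPM in libraries 1 and 2. Car12 (ENSMUSG00000032373; chromosome 9, 66713686 to 66766845, plus strand), a surface enzyme of absorptive and secretory epithelia, led them at 17.3 TPM (989 counts) and 18.3 TPM (824 counts), a mean of 17.8 ± 0.679 TPM (SD, n = 2), and at 35.9 and 21.8 on the rescaled TPM. Car14 (ENSMUSG00000038526; chromosome 3, 95897768 to 95904691, minus strand) was at 3.51 TPM (68 counts) and 7.56 TPM (142 counts), with library 2 the higher. Car14 overlaps Aph1a on the opposite strand, which had 548 and 1887 counts, and whether the counting used strand is not given in the sources used here, so the level of Car14 is uncertain.

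Car9 (ENSMUSG00000028463; chromosome 4, 43506966 to 43513729, plus strand), a surface enzyme that low oxygen induces, was covered by 2 and 7 counts, which is 0.06 and 0.61 TPM. The value of library 1 lies under the level of 3 counts, 0.0955 TPM. Car9 overlaps the antisense gene Gm12454, which had 7 and 8 counts, so the few counts of Car9 are uncertain as well. Other targets of the low-oxygen response were present: 12 of 12 listed genes reached 1 TPM in both libraries, among them Vegfa at 33.4 and 172 TPM. Car8 (ENSMUSG00000041261; chromosome 4, 8143362 to 8239041, minus strand), a related protein without the enzyme activity, known from Purkinje neurons of the cerebellum, was at 0.33 TPM (21 counts) and 0.24 TPM (12 counts). Both genes were near the limit of detection at this depth.

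The 6 carbonic anhydrase genes outside the chosen set were low in library 1. Car7, a cytosolic enzyme known from brain and muscle, was covered by 6 and 191 counts, which is 0.31 and 10.6 TPM. Car11, a related protein without activity, had 13 and 62 counts, or 0.75 and 4.41 TPM. The other 4 were at 1 and 0 counts (Car10), 3 and 2 counts (Car6), 0 and 1 counts (Car5a) and 0 and 8.79 counts (Car15), the last from reads that fit more than 1 gene.

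The libraries were compared gene by gene on TMM-scaled counts, a scaling that centres most genes at no difference, with a two-sided exact binomial test and Benjamini-Hochberg adjustment over 18261 genes with at least 10 counts. With 1 library on each side this covers counting error between these libraries and has no replicate check. Calls required an adjusted p below 0.05 and at least a 2-fold difference. Of 9 carbonic anhydrases tested, 0 were called higher in library 2, beside 30.1% of all genes tested, and 2 were called lower, beside 18.4%. The median log2 ratio of library 2 to library 1 was -0.64 for the 9 genes and 0.022 for all genes tested. Car9, with 9 counts in sum, was not tested.

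The 2 genes called lower were Car13, at a log2 ratio of -1.04 (95% interval -1.33 to -0.77; adjusted p from the exact test 1.09e-13), and Car8, at -1.17 (-2.35 to -0.10; adjusted p from the exact test 0.0389). With total counts as the scale, neither was called, at -0.61 and -0.73, while Car14 was called higher at 1.11. Car3 was at -0.82 (-0.83 to -0.81), an interval made narrow by its many counts, and stayed under the 2-fold limit. Of 8 skeletal muscle markers tested 5 were called higher and 0 lower in library 2, beside 30.1% and 18.4% of all genes. After the GC subtraction described next 2 were called higher and 0 lower, beside 9.55% and 8.17% of all genes. Car12 at -0.65 (-0.79 to -0.52) and Car5b at -0.51 (-0.57 to -0.44) lay below 0, and Car1 at -0.64 had an interval that spans 0 (-1.74 to 0.42). Above 0 lay Car14 at 0.67 (0.25 to 1.11), Car2 at 0.49 (0.32 to 0.66) and Car4 at 0.47 (0.35 to 0.60), all under the 2-fold limit.

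The ratio between the libraries followed the GC content of the transcripts over all genes tested. Its median was -1.10 for genes of 40% to 45% GC, -0.43 for 45% to 50%, 0.76 for 50% to 55% and 2.50 for 55% to 60%. The carbonic anhydrases spread along the same axis: the 6 with log2 ratios below 0 had a GC content of 41.7% to 49.2%, and the 3 above 0 had 50.1% to 53.3%. Car3, at 45.2% GC, lay at the level of genes of like GC content, whose median was -0.85 (quartiles -1.10 and -0.49). Car8, at 42.3% GC, lay at the median of its like.

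**Figure D3:**
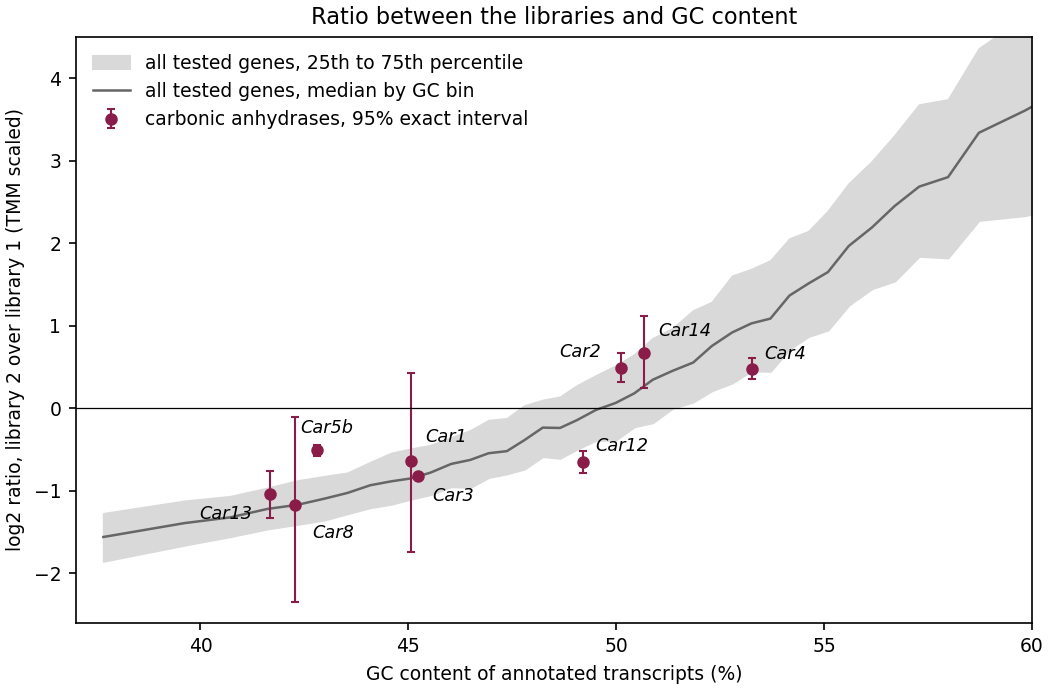
Log2 ratio of library 2 to library 1 on TMM-scaled counts against the GC content of the annotated transcripts; points are the 9 carbonic anhydrases tested with 95% exact intervals, the line and band are the median and quartiles of all genes tested in 40 bins. Car3, Car1, Car8, Car13, Car14 and Car2 lie in the band, Car5b at -0.51 above it and Car12 at -0.65 below it, with Car4 near its lower edge.

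When the median of genes of like GC content was subtracted, 0 carbonic anhydrases were called in either direction, beside 9.55% of 18133 genes called higher and 8.17% called lower. The signs of several genes turned: Car5b moved from -0.51 to 0.59, Car4 from 0.47 to -0.55, Car13 from -1.04 to 0.18, Car1 from -0.64 to 0.21 and Car3 from -0.82 to 0.030. The signs of Car2 (0.43), Car14 (0.32) and Car12 (-0.50) stayed. For Car4 the value depended on which transcripts set the GC content: weighted by their share it was 51.4%, not 53.3%, and the ratio after subtraction was 0.017. The same weighting put Car3 at -0.21.
Outside the chosen set, Car7 was called higher with a log2 ratio of 4.49 and 3.13 after the subtraction, while Car11 was called higher at 1.82 and lower at -1.51 after it. Car7 has 54.4% GC and Car11 58.4%.

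The transcripts of each gene were described by isoform percent, the share of the gene's TPM that each transcript takes. Car5b-201 took 99.5% and 99.8% of Car5b in libraries 1 and 2, Car4-201 98.9% and 93.8% of Car4, and Car2-201 99.5% and 94.2% of Car2. Car8 and Car13 have 1 transcript each in the files. Over 7135 protein-coding genes the share of the leading transcript differed between the libraries by a median of 13.6 percentage points, against 0.27 for Car5b, 5.11 for Car4, 5.29 for Car2, 8.53 for Car3 and 26.0 for Car12. Car12 was thus above that median, with 31.9% of the genes further apart than it.

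**Figure D4:**
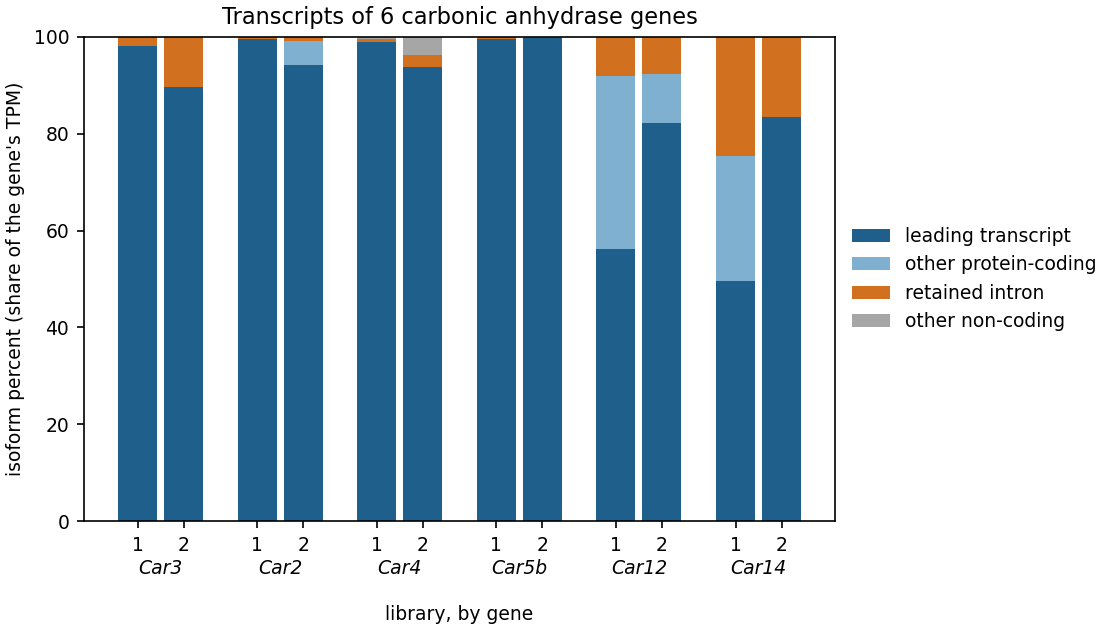
Isoform percent (share of the gene's TPM) in libraries 1 and 2 for 6 carbonic anhydrase genes, stacked by kind of transcript. The coding transcript takes 98.2% and 89.6% of Car3, with retained-intron transcripts at 1.82% and 10.4%, and the leading transcript of Car12 takes 56.2% and 82.2%.

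In Car3 the coding transcript Car3-201 stood at 7139 and 6265 TPM in libraries 1 and 2. The retained-intron transcript Car3-202 stood at 127 TPM (2618 counts) and 696 TPM (11276 counts), or 1.74% and 9.96% of the gene. Library 2 was the higher, and the deposited intervals of 115 to 125 and 639 to 665 TPM did not overlap. These intervals are those the authors deposited around posterior means, whose level is not given in the sources used here, and the deposited TPM can lie outside them. Car3-203, a shorter retained-intron transcript, took 0.08% and 0.40%.

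Car3-202 reads through the end of exon 2 (exon at chr3:14864250-14864447) into intron 2 and ends after 1103 of its 2355 bases. The edge is shown because it is what sets this transcript apart from the coding one. The edge lies at chr3:14864418-14864477 on the plus strand of mm10. The last 30 bases of exon 2 are followed by the first 30 of intron 2, with the first intron bases in capitals.
Car3 exon 2 and intron 2: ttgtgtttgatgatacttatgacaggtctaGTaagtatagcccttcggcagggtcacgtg
Reads in the shared parts of exons 1 and 2 fit both transcripts, so the split rests on the model of the authors' software. Reads in the intron or in the 26 extra 5′ bases can set Car3-202 apart. In the protein-coding genes with a retained-intron transcript and at least 100 counts in each library (3973), the retained-intron share differed by a median of -0.16 percentage points in library 2 against library 1 (quartiles -6.10 and 1.72). Car3 differed by 8.54 points, and 9.11% of those genes differed by more in the same direction. The intron bases in Car3-202 have 38.6% GC and the coding transcript 46.6%. The part of GC content in the share of Car3-202 was not tested.

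Car12 has a pair of full-length coding transcripts that differ by a cassette exon, an exon that is kept or skipped as a unit, and at their ends. Car12-201 holds the exon of 30 bases, 44 more bases at the 5′ end and 3 more at the 3′ end. The split between the transcripts can rest on reads in any of these stretches. The exon is shown because Car12-202 lacks it. It is exon 9 of Car12-201, at chr9:66762403-66762432 on the plus strand of mm10, it keeps the reading frame, and it stands in capitals between 15 coding bases of the exons on either side.
Car12 exon 9: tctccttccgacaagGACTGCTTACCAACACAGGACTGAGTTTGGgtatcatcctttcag
Car12-201, with the exon, took 56.2% of Car12 in library 1 and 82.2% in library 2. Car12-202, without it, took 35.7% and 10.1%. Of the summed expected counts of both, the form with the exon held 61.7% and 89.3%. The deposited intervals were wide and overlapped, at 6.17 to 15.2 and 9.68 to 15.9 TPM for Car12-201 and 4.5e-05 to 8.71 and 0.107 to 5.83 TPM for Car12-202. The share with the exon was not tested between the libraries. Car12-205, a retained-intron transcript, took 8.07% and 7.75%.

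For the lowest genes the transcripts were not resolved. Car14-201 took 49.6% and 83.4% of Car14, but the remaining transcripts rested on at most 13.5 counts each. Car1-201 was given all of Car1 in both libraries, while the posterior shares that the authors deposited were 41.2% and 37.9%, spread over 3 transcripts. Car9-201 was given 100% of 2 counts and 29.1% of the TPM from 7 counts.

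The genes nearest in level to the 3 highest carbonic anhydrases were found by distance in log2(TPM + 1) over both libraries among 21461 protein-coding genes. For Car3 they were Spag11b, an epididymal defensin-like gene, at a distance of 0.68, Crisp1, a secreted protein of the epididymis, at 0.79, and Fabp4, the fatty acid carrier of adipocytes, at 0.86. For Car5b they were Hoxd8 (0.030), 1110004F10Rik (0.040) and Hnrnpm (0.041), and for Car4 Ywhag (0.036), Ift20 (0.042) and Vkorc1 (0.061). With 2 libraries this measures likeness of level only.

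Genes that handle bicarbonate and acid were read beside the enzymes. Of 15 bicarbonate transporters 6 reached 1 TPM in both libraries, and of 11 tested 3 were called higher and 3 lower in library 2, with a median log2 ratio of -0.031; all genes tested gave the 30.1% called higher and 18.4% called lower noted above. After the GC subtraction 1 was called higher and 1 lower, beside 9.55% and 8.17% of all genes. The highest were Slc4a2, a chloride-bicarbonate exchanger, at 2.23 and 38.9 TPM, Slc26a3, an exchanger of the same kind in epithelia, at 11.9 and 10.8 TPM, Slc4a4, a sodium-bicarbonate cotransporter, at 11.7 and 10.4 TPM, and Cftr, an anion channel, at 10.0 and 7.65 TPM. Car12 at 17.3 and 18.3 TPM stood above each of these 4 in library 1 and above all but Slc4a2 in library 2. Of 7 acid export genes 5 reached 1 TPM in both libraries, and of 7 tested 5 were called higher and 0 lower, beside 30.1% and 18.4% of all genes, with a median of 2.13. After the GC subtraction 1 was called higher and 1 lower, beside 9.55% and 8.17% of all genes, with a median of 0.29. Slc9a3r1, a scaffold of the sodium-proton exchanger, was at 8.38 and 61.2 TPM, the lactate carrier Slc16a1 at 13.7 and 19.6 TPM, and the proton channel Hvcn1 at 1.77 and 18.6 TPM.

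Of 6 duct acidification genes, which encode proton pump subunits and the bicarbonate-sensing adenylyl cyclase, 5 reached 1 TPM in both libraries. Of the 6 tested 1 was called higher and 1 lower, beside 30.1% and 18.4% of all genes. After the GC subtraction 2 were called higher and 0 lower, beside 9.55% and 8.17% of all genes. Atp6v0d2 was highest at 68.5 and 39.7 TPM, ahead of Atp6v1g3 at 12.7 and 16.7 TPM, Atp6v1c2 at 6.58 and 11.5 TPM, and Atp6v0a4, which shares reads, at 2.37 and 5.31 TPM. The pump genes Atp6v0d2, Atp6v1g3, Atp6v0a4 and Atp6v1b1 are also among 5 markers of clear cells, the acid-secreting cells of the duct. Of those 5 markers 4 reached 1 TPM in both libraries, and they summed to 104 and 98.5 TPM, or 215 and 117 on the rescaled TPM. Among them Atp6v0d2 was called lower in library 2, at a log2 ratio of -1.53, and Atp6v1b1 higher, at 2.00. Foxi1, Atp6v1g3 and Atp6v0a4 were not called. After the GC subtraction Atp6v0d2 was not called, at -0.31, while Atp6v1b1 (1.54) and Atp6v1g3 (1.05) were called higher. Foxi1 and Atp6v0a4 remained without a call. Car2, which clear cells are known to hold, was at 15.7 and 38.3 TPM, or 32.5 and 45.5 rescaled.

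Of 9 carboxylases and related enzymes that use bicarbonate 8 reached 1 TPM in both libraries. Of 8 tested 3 were called higher and 0 lower, beside 30.1% and 18.4% of all genes. After the GC subtraction 2 were called higher and 0 lower, beside 9.55% and 8.17% of all genes. Pcx, the pyruvate carboxylase that Car5b serves, was at 4.62 and 195 TPM, Pccb at 28.8 and 94.2 TPM and Pcca at 30.2 and 46.0 TPM, both subunits of propionyl-CoA carboxylase, and Cad, an enzyme of pyrimidine synthesis, at 5.66 and 91.1 TPM. Pcx has 57.3% GC and Car5b 42.8%. Their order depended on the library: Car5b stood above Pcx in library 1 and below it in library 2. Of 12 low-oxygen targets 5 were called higher and 0 lower, and 3 and 0 after the GC subtraction. The shares of all genes before and after it were those just given. The highest were Aldoa at 30.9 and 692 TPM, Bnip3, which shares reads, at 253 and 247 TPM and Ldha at 74.2 and 333 TPM. Among the receptors with a carbonic anhydrase-like domain, Ptprg was at 19.9 and 18.8 TPM and Ptprz1 at 0.07 and 0.11 TPM, and neither was called.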

How the data were processed

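Polyadenylated RNA was measured in 2 technical libraries of 1 biosample. Text deposited with the tables names the mm10 assembly and the M4 annotation. Which aligner and quantifier made them is not stated in the sources here. The authors deposited expected counts, TPM and FPKM per gene and transcript, and each transcript's share of its gene's TPM as a percent, per the file headers. Symbols, coordinates and GC content came from GENCODE M21, a later release, which matched 42462 of 43346 identifiers.

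Expected counts were rounded for an exact binomial test with TMM sizes from edgeR 4.0.16 (R 4.3.3) and 0.5 added before logs. The test was tried on simulated counts whose only random spread was counting error. That simulation cannot show how the test fares under other spread between the libraries. The TPM intervals are exact Poisson intervals, and reads without molecular identifiers make every interval one of counting error only. All 10 genes had whole counts within 0.005. Alternatives were DESeq2 1.42.0 size factors, total counts, no filter, posterior means, FPKM, rescaled TPM, a GC subtraction in 40 bins, other detection limits and each library alone. Tables were handled in pandas 2.3.3 and numpy 2.4.6 and intervals computed in scipy 1.17.1 (Python 3.11.15).

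Members, lists and alternatives were chosen with earlier results of these data known. Named were all carbonic anhydrases, up to 4 members of each list by mean TPM, genes inside the chromosome 3 cluster, and the 3 genes nearest each of the 3 highest members. Some items that this rule names are not reported here. Acta1, Mb, Ckm, Hba-a1, Atp6v1b1 and Foxi1 were named after their values were seen.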

Additional observations from a re-analysis of the deposited data

How the results depend on the processing

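The count of genes at 1 TPM or more in both libraries was 8, also at 0.5 TPM and in each library alone. A limit of 3 expected counts gave 9, with Car8 added. A posterior mean of 1 TPM also gave 9, but with Car9 added, from 2 and 7 counts. The count called higher was 0 and became 1 with total counts, Car14 at 1.11. The count called lower was 2 and became 0 with total counts, 1 without the count filter, where Car8 had an adjusted p from the exact test of 0.058, and 0 under either GC subtraction. TMM and total counts differed by 0.44 on the log2 scale. Subtraction of the GC trend reversed Car1 (0.21), Car3 (0.030), Car4 (-0.55), Car5b (0.59) and Car13 (0.18); with GC content weighted by isoform percent, Car1 (0.35), Car5b (0.54) and Car13 (0.18) were reversed. These moves are built into the subtraction, and the cause of the trend was not tested. Of 50 mean levels under another unit, estimate or library 14 moved by more than the SD, 6 upward under rescaled TPM and 5 downward under FPKM. The rest were Car1 (1.52), Car3 (6718) and Car9 (1.755) under posterior mean TPM. Either library alone always lies within that SD of the mean, so only a change of unit or estimate could count as moved. Posterior isoform percent moved the leading share of Car1 to 39.6 and of Car9 to 6.99. No paired analysis was possible because the labels hold 1 group. Depth limits Car1, Car8 and Car9, each with at most 21 counts in a library.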
